A study of Mus musculus with 4 samples.

Results

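The mast cell chymases are a family of serine proteases stored in mast cell granules, and the members examined were the 7 mouse genes Mcpt1, Mcpt2, Mcpt4, Mcpt9, Mcpt-ps1, Cma1 and Cma2. Members were chosen by the gene symbol in the platform annotation, and each had 1 probe set, which made 7 genes of 22180 measured. Expression was measured on Affymetrix whole-transcript arrays in BALB/c mouse mast cells, with 1 array for each of 4 groups. Intestinal mast cells came from small intestine lamina propria of naive mice, sorted by flow cytometry as FceRI and c-Kit positive. The other groups were bone marrow-derived mast cells (BMMCs), grown in stem cell factor and interleukin-3, at 10 ng/ml each, for 3 to 4 weeks and then kept for 6 days under 1 of 3 conditions. In the Dll1 condition they shared the dish with CHO cells, a hamster ovary line, made to carry mouse Dll1, a Notch ligand, and were then enriched for c-Kit on magnetic beads. The next condition was TGF-beta1 at 5 ng/ml, and the control was normal medium, with no selection step named for either. The labels name neither how many mice or cultures gave each RNA sample nor whether RNA was pooled, and since the control is not described as holding CHO cells, the ligand and its carrier cells cannot be told apart.

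Chymases typically cleave proteins after aromatic residues, are held in the granule by negatively charged proteoglycans, and are set free when the mast cell degranulates. These are traits of the class and need not hold for each member, and protease activity was not measured here. In mice, mast cells of mucosal surfaces are known for Mcpt1 and Mcpt2, whereas mast cells of connective tissue are known for Mcpt4 and Cma1. TGF-beta is a known inducer of Mcpt1 in cultured mast cells, and Notch receptors signal through the DNA-binding protein RBPJ. The comparisons asked what each signal did to this protease repertoire in cultured cells and how it stood against that of mast cells taken from the intestine.

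Values are log2, and each gene is set against itself on the other arrays. A probe set was counted as above background on an array when it passed the 95th percentile of probe sets for olfactory, vomeronasal and taste genes there, a limit between 5.13 and 5.22. A gene was called higher or lower when it passed the limit on either array of a comparison and the fold, counted from the limit where the reading was under it, reached 2. With 1 array per group no p-value or replicate error exists. In their place, the standard deviation (SD) between probe sets of the same gene serves as a gauge of technical spread. Set against control, it was 0.51 (log2) for intestinal cells, 0.36 for Dll1 and 0.25 for TGF-beta1. It was 0.36 for Dll1 minus TGF-beta, 0.47 for intestinal minus TGF-beta and 0.45 for intestinal minus Dll1. That gauge covers no variation between cultures or animals. Nor does it cover effects of amplification or of the array that move all probe sets of a gene alike. All 7 measured mast cell markers, among them Kit, Fcer1a, Ms4a2 and Cpa3, were above background on each of the 4 arrays. Whether a lower value reflects fewer cells with the transcript or less transcript per cell cannot be told apart in such bulk RNA.

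The start regions of the members are shown because Mcpt1 and Mcpt4 had nearly the same one but read differently with TGF-beta1. The RefSeq promoter table (GRCm38.p6) held 4 of the 7 members, and the 250 bases before the transcript start are printed for each. Mcpt1 lies on the plus strand (chr14:56017714-56017963), and Mcpt4 (chr14:56062311-56062560), Mcpt9 (chr14:56030496-56030745) and Cma1 (chr14:55944676-55944925) lie on the minus strand. Sequences run 5′ to 3′ and end at the base before the start. Capitals mark exact matches on either strand to the searched motifs, which were the GATA forms AGATAA and TGATAA, the SMAD element CAGAC, the RBPJ site TGGGAA, the MITF E-boxes CACATG and CACGTG, and the TATA box TATAAA.
Mcpt1: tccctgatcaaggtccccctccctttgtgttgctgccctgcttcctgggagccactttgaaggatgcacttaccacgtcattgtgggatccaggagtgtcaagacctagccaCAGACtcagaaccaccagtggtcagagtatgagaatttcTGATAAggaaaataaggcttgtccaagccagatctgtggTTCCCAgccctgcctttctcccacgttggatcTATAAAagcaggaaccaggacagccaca
Mcpt4: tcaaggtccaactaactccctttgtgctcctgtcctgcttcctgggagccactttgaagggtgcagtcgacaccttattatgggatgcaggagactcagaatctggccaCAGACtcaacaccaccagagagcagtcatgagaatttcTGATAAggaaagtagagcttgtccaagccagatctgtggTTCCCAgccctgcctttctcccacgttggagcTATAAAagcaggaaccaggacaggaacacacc
Mcpt9: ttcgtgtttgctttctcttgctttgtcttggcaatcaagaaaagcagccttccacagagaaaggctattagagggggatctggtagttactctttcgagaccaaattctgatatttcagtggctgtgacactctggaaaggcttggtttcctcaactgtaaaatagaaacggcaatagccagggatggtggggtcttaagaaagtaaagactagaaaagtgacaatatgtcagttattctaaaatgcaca
Cma1: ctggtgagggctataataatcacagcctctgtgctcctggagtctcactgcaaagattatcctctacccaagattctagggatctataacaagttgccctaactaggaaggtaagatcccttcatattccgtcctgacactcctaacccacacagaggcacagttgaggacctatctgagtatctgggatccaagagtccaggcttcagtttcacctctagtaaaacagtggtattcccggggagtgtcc

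In a global alignment, 209 of 242 aligned bases (86.4%) were identical between the Mcpt1 and Mcpt4 sequences. The other 5 pairs of members lay between 56.7% and 64.2%. Unrelated promoters were not aligned, so whether these lower shares exceed those of unrelated sequences was not tested. The longest run shared exactly by Mcpt1 and Mcpt4 was 53 bases, from 83 to 31 bases before the start of Mcpt1. Counted along Mcpt1, 3 of 50 aligned bases differed between 100 and 51 bases before the start and 3 of 50 in the last 50, against 11 of 49 between 150 and 101 and 16 of 93 farther out. The differences between these start regions were thus densest beyond 100 bases.

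Mcpt1 and Mcpt4 each held 1 match to 4 of the searched motifs, in the same order. Counting from the farthest base, the SMAD element began 138 bases before the start of Mcpt1 and 141 before that of Mcpt4. The GATA form TGATAA began at 99 and 103 bases, the RBPJ site at 60 and 64 on the opposite strand, and the TATA box at 28 and 32. Neither Mcpt9 nor Cma1 had a match to any of the 7 searched motifs in these windows. Among 32841 promoters of the same length, 42.2% held the SMAD element, 21.6% the RBPJ site, 7.94% TGATAA and 12.4% the TATA box, so single matches are common. AGATAA occurred in 9.99%, CACATG in 12.3% and CACGTG in 6.02%, and in none of the 4 members. A match describes letters and is not a binding site, and the absence of one in this window says nothing about the factor. TGATAA, the TATA box and the alignment were added after the sequences had been read.

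**Figure D1:**
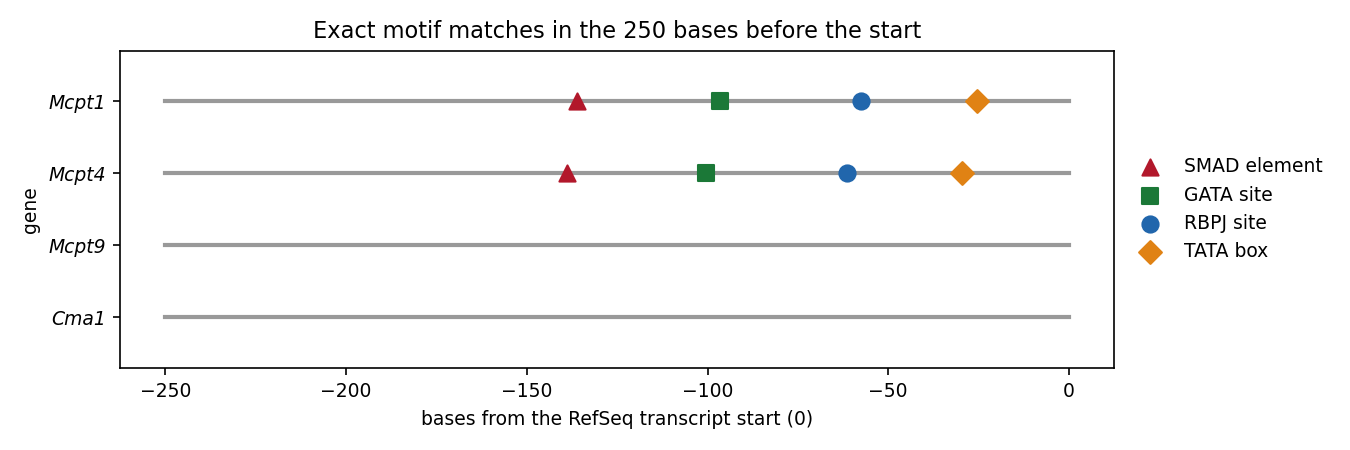
Exact motif matches in the 250 bases before the RefSeq start of 4 members; the x axis gives bases from the start and each symbol is the centre of a match. Mcpt1 and Mcpt4 carry the same 4 matches in the same order at nearly the same distances, and Mcpt9 and Cma1 carry none of the searched letters.

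Mcpt1 and Mcpt2, the chymases of mucosal mast cells, were low in control BMMCs and high under each of the other conditions. Mcpt1 read 12.72 in intestinal mast cells, 12.46 with Dll1, 12.41 with TGF-beta1 and 4.82 in control BMMCs, where it was below background. Mcpt1 was thus below background in the control culture alone. The 3 high values differed by 0.05 to 0.32, which is within the spread between probe sets. The highest reading of any probe set was between 13.00 and 13.14 on the 4 arrays, and whether probe sets this bright were saturated is not known.

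Mcpt2 read 12.33 in intestinal mast cells, 11.74 with Dll1, 12.35 with TGF-beta1 and 5.75 in control BMMCs, a value just above background. Here the intestinal and TGF-beta1 arrays differed by -0.02, while Dll1 read 0.61 below TGF-beta1 and intestinal cells read 0.59 above Dll1. Both of these steps exceeded the probe set SD but stayed under 2-fold. Mcpt1 and Mcpt2 had the most alike profiles of the 21 pairs of members, with a Euclidean distance of 0.98 over the 4 arrays after each gene's mean was removed and values under the limit were raised to it.

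The pseudogene Mcpt-ps1, which is transcribed but has no annotated protein, followed the same direction from a higher base. It read 12.38 in intestinal mast cells, 11.14 with Dll1, 10.77 with TGF-beta1 and 8.42 in control BMMCs. Dll1 and TGF-beta1 were not separated beyond the probe set SD (0.36), but intestinal cells were 1.24 above Dll1 and TGF-beta1 was 2.36 above control. Unlike Mcpt1 and Mcpt2, Mcpt-ps1 was thus at least 2-fold higher in intestinal cells than under either treatment.

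Mcpt4, a connective tissue chymase regarded as a counterpart of human chymase, split the 2 treatments. It read 10.41 in intestinal mast cells, 10.15 with Dll1, 5.04 with TGF-beta1 and 4.53 in control BMMCs, the last 2 below background. Intestinal cells and Dll1 differed by 0.26, within the probe set SD. On the TGF-beta array the probe set of Mcpt4 stayed below background although Mcpt1 and Mcpt2 read above 12 there.

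Mcpt9, a chymase known from mast cells of the uterus, was above background in intestinal cells alone. It read 7.08 there, 4.70 with Dll1, 4.55 with TGF-beta1 and 4.54 in control BMMCs. The 3 culture values lay below their limits and have no order.

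Cma1, also known as mast cell protease 5, ran the opposite way. It read 7.16 in intestinal mast cells, 11.37 with Dll1, 11.98 with TGF-beta1 and 12.12 in control BMMCs. TGF-beta1 and control were not separated beyond the probe set SD, Dll1 stood 0.61 below TGF-beta1, and intestinal cells stood far below all 3 cultures. Its neighbour Cma2, annotated as a further chymase, read 7.30 in intestinal cells, 7.42 with Dll1, 7.84 with TGF-beta1 and 7.79 in control BMMCs. Cma2 was above background on every array, and its whole range of 0.54 stayed under 2-fold.

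**Figure D2:**
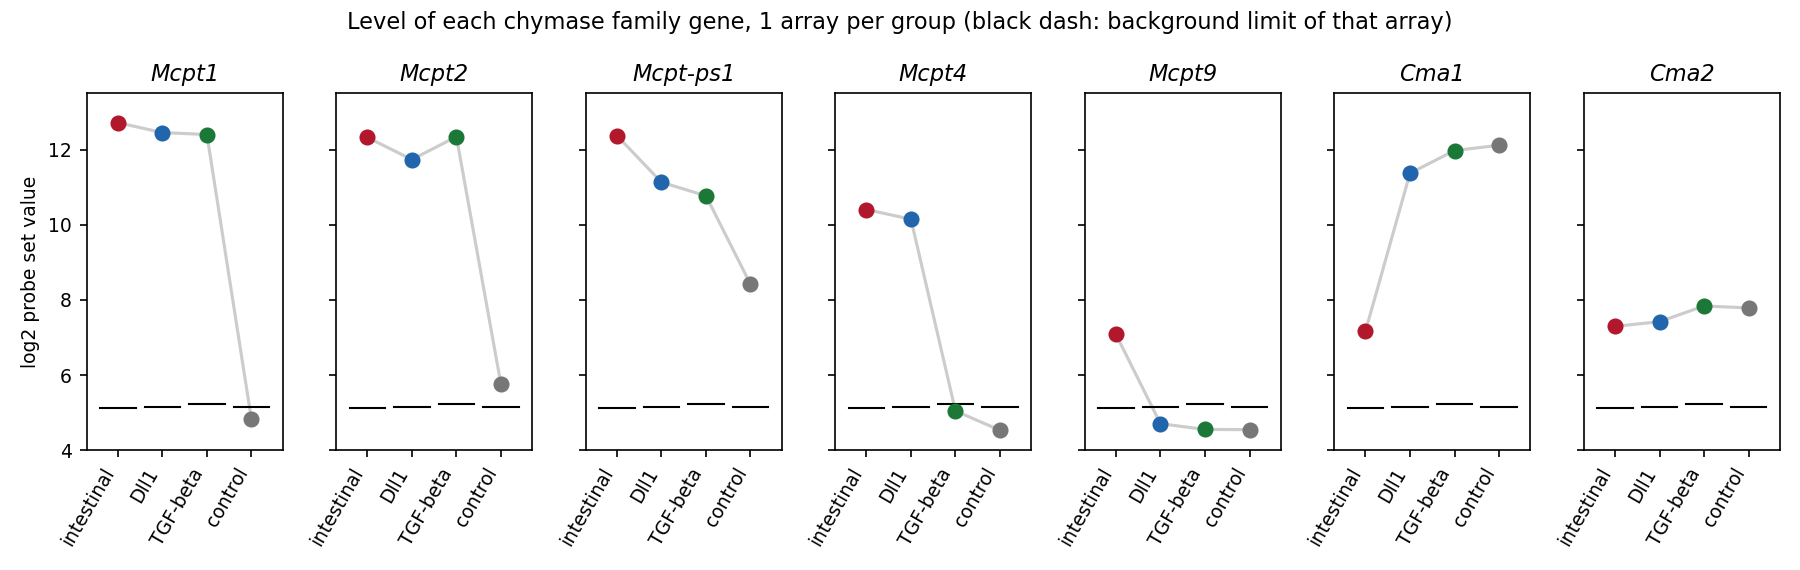
Log2 value of each member on the 4 arrays, 1 point per array; black dashes are the background limits of 5.13 to 5.22. Mcpt1 and Mcpt2 are low in control alone, Mcpt4 is high in intestinal cells and with Dll1, Mcpt9 is above background in intestinal cells alone, and Cma1 is low in intestinal cells.

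In TGF-beta1-treated against control BMMCs, 3 of the 7 members were called higher and 0 lower. The increase was at least 154-fold for Mcpt1 and 97.1-fold for Mcpt2, which ranked 1 and 2 by size among 11880 genes tested. Mcpt-ps1 was 5.12-fold higher. Cma1 differed by -0.14 and Cma2 by 0.05. Mcpt4 and Mcpt9 were below background on both arrays, which left 5 members tested. Across all tested genes 0.513% were called higher and 0.901% lower. The median measured difference of the 7 members was 0.52, which is the reading of Mcpt4 below background, against -0.03 over all tested genes.

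In Dll1-cocultured against control BMMCs, 4 of the 6 tested members were called higher and 0 lower. Mcpt1 was at least 159-fold, Mcpt2 63.7-fold, Mcpt4 at least 32.1-fold and Mcpt-ps1 6.57-fold higher. By size they ranked 1, 3, 4 and 32 among 12545 tested genes. Cma1 differed by -0.75, beyond the probe set SD but under 2-fold, and Cma2 differed by -0.37. Of all tested genes, 1.65% were called higher and 1.81% lower. With array medians subtracted, 35.4% of the called genes were higher, against 47.7% as deposited. The median measured difference of the 7 members, with the untested Mcpt9 among them, was 2.72, against 0.0001 over all tested genes.

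In intestinal mast cells against control BMMCs, 5 members were higher, Cma1 was lower and Cma2 was within 2-fold. Mcpt1 was at least 191-fold, Mcpt2 95.8-fold, Mcpt4 at least 38.4-fold, Mcpt-ps1 15.6-fold and Mcpt9 at least 3.83-fold higher. Cma1 was 31.1-fold lower, which ranked 21 among 12578 tested genes, of which 4.52% were called higher and 6.79% lower. The members' median difference was 3.96, against -0.0042 over all tested genes. Because these 3 comparisons share the control array, its low readings of Mcpt1 and Mcpt2 enter all of them.

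The direct comparison of the 2 treatments rests on no control array. Mcpt4 was at least 30.6-fold higher with Dll1 than with TGF-beta1 and ranked 5 among 12475 tested genes, of which 2.22% were called higher and 1.92% lower. It was the 1 member of 6 tested that was called. Mcpt1 differed by 0.05, Mcpt-ps1 by 0.36, Cma2 by -0.42, and Mcpt2 and Cma1 by -0.61 each. The Dll1 and TGF-beta1 cultures were therefore set apart within the family by Mcpt4.

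In intestinal mast cells against TGF-beta1-treated BMMCs, Mcpt4 (at least 36.5-fold), Mcpt9 (at least 3.64-fold) and Mcpt-ps1 (3.04-fold) were higher and Cma1 was 28.2-fold lower. Of 12459 tested genes, 4.09% were called higher and 4.58% lower. In intestinal cells against the Dll1 coculture, Mcpt9 (at least 3.81-fold) and Mcpt-ps1 (2.37-fold) were higher and Cma1 was 18.5-fold lower. Of 12864 tested genes, 3.61% were called higher and 4.19% lower. The 4 members within 2-fold there were Mcpt1 (0.26), Mcpt2 (0.59), Mcpt4 (0.26) and Cma2 (-0.12). By these readings, the Dll1 coculture held the mucosal pair and Mcpt4 at levels within 2-fold of the intestine, and Cma1, Mcpt9 and Mcpt-ps1 were the members that set the intestinal array apart. For Mcpt9 that call depended on the limit: with the 99th percentile in place of the 95th it was 0.99 above Dll1 on the log2 scale, under 2-fold, and 1.14 above TGF-beta1 and 1.04 above control.

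**Figure D3:**
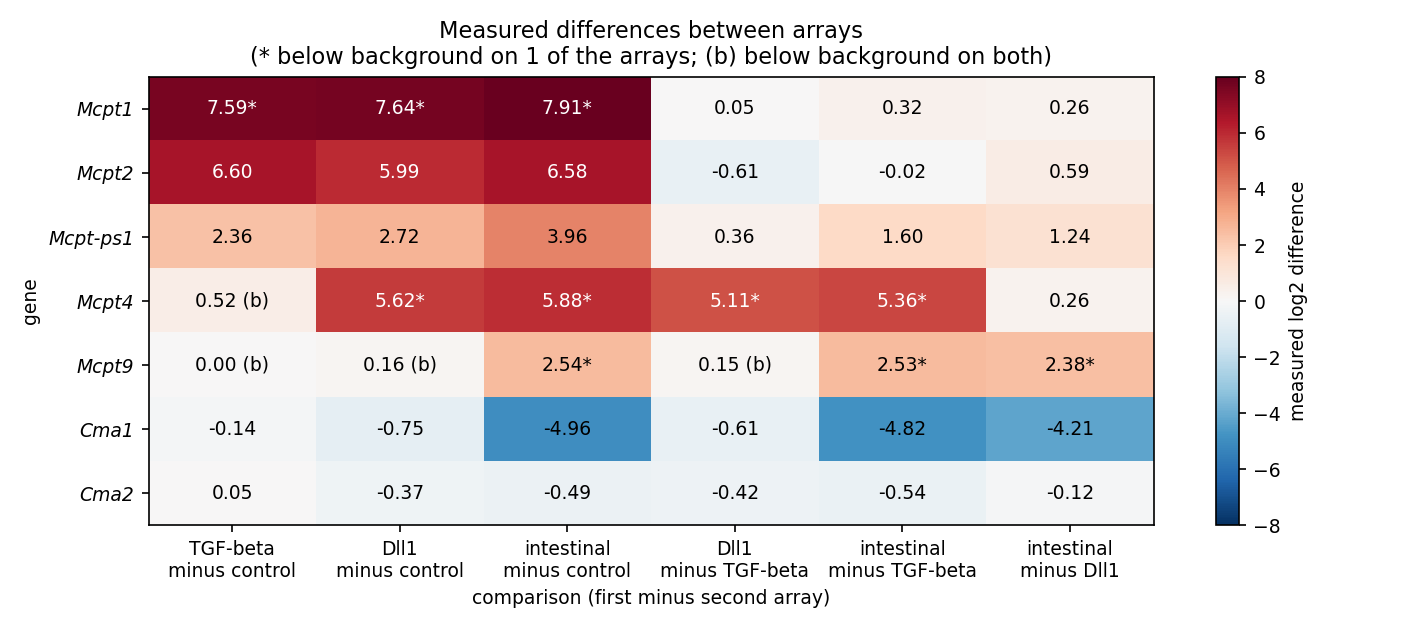
Measured log2 differences of the 7 members in the 6 comparisons, each the named array minus the other; an asterisk marks a gene below background on 1 of the arrays and (b) on both. The red cells for Mcpt4 begin with Dll1, those for Mcpt9 appear with the intestinal array alone, and Cma1 is blue wherever the intestinal array comes first.

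The members sit in 1 cluster on chromosome 14 together with Mcpt8, cathepsin G and granzymes. In the RefSeq order of GRCm38.p6 the genes run Cma1, Mcpt-ps1, Cma2, Mcpt1, Mcpt2, Mcpt9, Mcpt4, Mcpt8 and Ctsg, then granzymes to Gzmb. Neighbours in that order were alike in some cases and unlike in others. Mcpt1 and Mcpt2, which lie next to each other, had the most alike profiles of all members, whereas Cma2, within 2-fold on all arrays, lies between Mcpt-ps1 and Mcpt1, and Mcpt9, below background in all 3 cultures, lies between Mcpt2 and Mcpt4. The annotated spans of Mcpt-ps1 and Cma2 overlap, as do those of Mcpt2 and Mcpt9, and family members have similar sequences. How far their probes read each other's transcripts was not tested.

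Of the 8 other cluster genes measured, Mcpt8 and Ctsg stood beside Mcpt4 in pattern as well as in position. Mcpt8, a protease known from basophils, read 10.94 in intestinal cells, 10.89 with Dll1, 7.68 with TGF-beta1 and 8.50 in control BMMCs. Cathepsin G (Ctsg), a granule protease with chymase-like activity, read 8.64, 8.70, 5.93 and 5.41 in the same order of groups. Against control, Ctsg was 9.79-fold higher with Dll1 and 9.38-fold higher in intestinal cells, and differed by 0.52 with TGF-beta1. The Dll1 array also held higher readings of neutrophil markers, which are given below. The part of other cells in the readings of Mcpt8 and Ctsg was not tested. Gzmc was at least 7.85-fold higher in intestinal cells than in control, and Gzmb was within 2-fold of control on each array. Gzmd, Gzmf, Gzmg and Gzmn were below background on all 4 arrays. The pseudogene Gm5801, which lies between Cma2 and Mcpt1 and was added for its position, read 6.37, 6.36, 5.79 and 6.02 in intestinal cells, Dll1, TGF-beta1 and control.

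**Figure D4:**
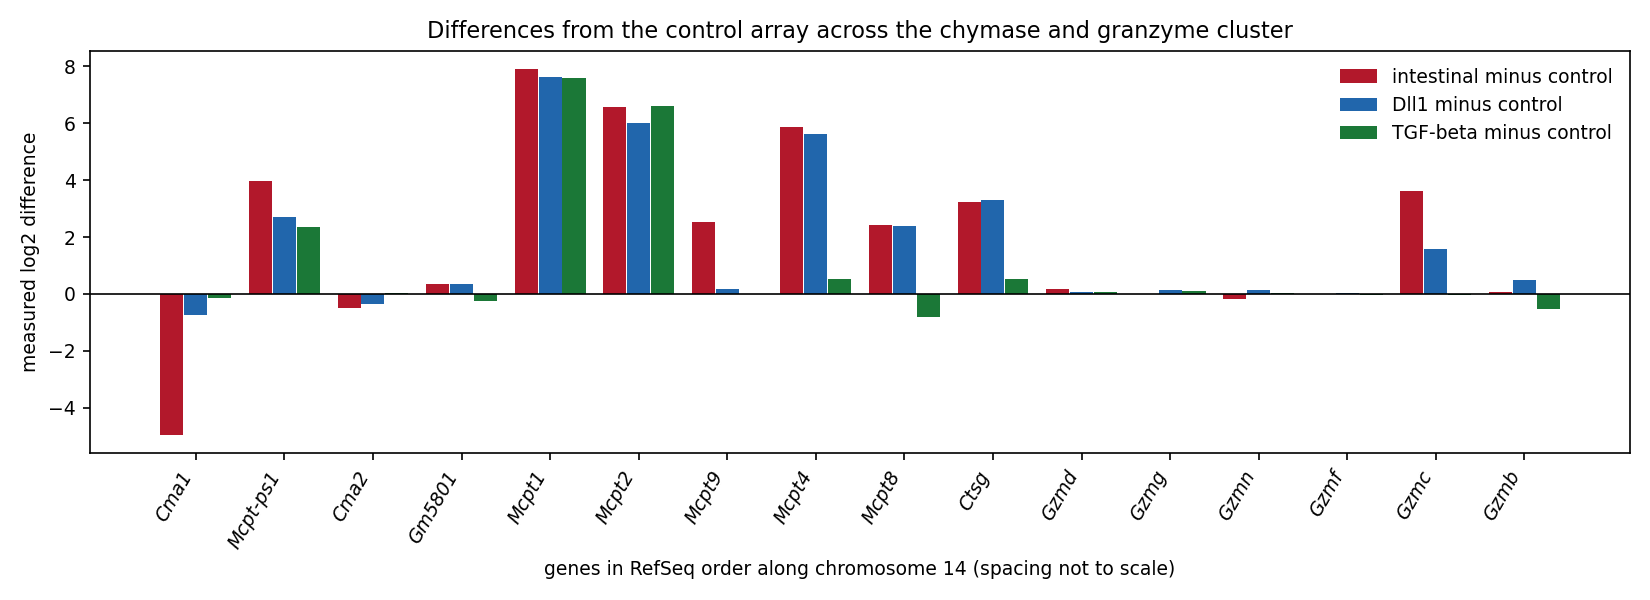
Measured log2 difference from the control array for the measured genes of the cluster, in RefSeq order along chromosome 14 (spacing not to scale); each gene has a bar for intestinal cells, Dll1 and TGF-beta1. The bars of Mcpt4, Mcpt8 and Ctsg are tall for intestinal cells and Dll1 and short or negative for TGF-beta1, while those of Mcpt1 and Mcpt2 are tall for all 3.

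The genes most like each main member were sought among 11984 named genes outside the family that were above background on at least 1 array. No gene came as near to Mcpt1 or Mcpt2 as they did to each other. The closest to Mcpt1 was Itgae, an integrin chain of mucosal immune cells, at a Euclidean distance of 3.82, followed by Plac8 (4.06), the signalling adaptor Sh2d1b1 (4.46), the scaffold Homer2 (4.80), Ctsg (4.84) and the cytokine Il1b (4.87). For Mcpt2 the list held Itgae (3.10), Plac8 (3.21), Sh2d1b1 (3.64), Homer2 (3.96), the lipid receptor S1pr3 (4.00) and Il1b (4.11). All 7 genes on these lists read lowest in control, as Mcpt1 and Mcpt2 did, over a smaller range.

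Mcpt4 and Cma1, by contrast, had close matches. Closest to Mcpt4 were Egr1 (0.35), the surface protein Cd7 (0.51), Dusp1 (0.61), Fosb (0.90), Nr4a1 (1.21) and the MHC class II chain H2-Ea (1.28). Egr1, Dusp1, Fosb and Nr4a1 are known as genes that respond within minutes to stimulation or handling. The intestinal and Dll1 cells are the 2 groups whose labels name a selection step, so selection and the level of Mcpt4 cannot be told apart on these arrays. Closest to Cma1 were Arhgap20 (0.36), the adhesion molecule Cadm3 (0.46), the membrane glycoprotein Gpm6a (0.46), the complement regulator Cd55 (0.58), Gpr176 (0.82) and Cadm1 (0.85). Ranked instead by correlation, among genes with a log2 range of at least 2, 4 of the 6 genes for Mcpt1, 5 for Mcpt2, 3 for Mcpt4 and 2 for Cma1 stayed on the list. Of the 4 rapid-response genes near Mcpt4, Egr1 stayed, and Dusp1, Fosb and Nr4a1 did not. Those that left still had correlations with Mcpt4 of 0.9965, 0.9890 and 0.9806 over the 4 arrays.

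**Figure D5:**
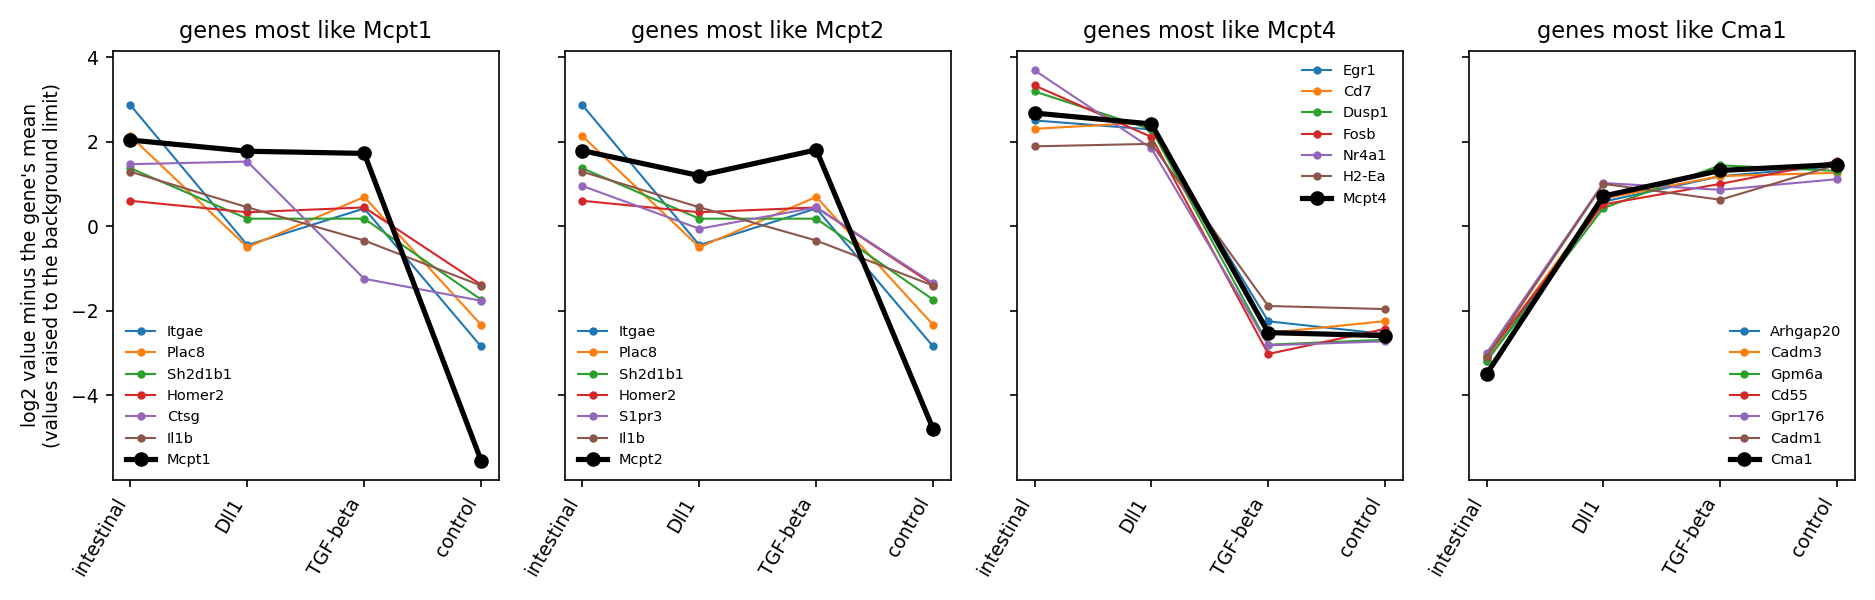
Log2 profiles of Mcpt1, Mcpt2, Mcpt4 and Cma1 (black) and of the 6 genes most like each, with each gene's mean over the 4 arrays removed and values under the background limit raised to it. The coloured lines lie close to the black one for Mcpt4 and Cma1, whereas Mcpt1 and Mcpt2 drop further in control than any of theirs.

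Chymases need partners for storage and processing, and 24 genes of that kind were measured, 23 of them tested in each treated culture against control. Of these, 1 was higher with TGF-beta1 and 1 with Dll1 and none was lower in either, in both cases the tryptase Tpsab1 (11.8-fold with TGF-beta1 and 3.50-fold with Dll1). Of all tested genes, 0.513% were called higher and 0.901% lower with TGF-beta1, and 1.65% and 1.81% with Dll1. A count of 1 on a list of this size is too small to set against those shares. The median over all 24 measured was -0.06 with TGF-beta1 and -0.09 with Dll1, against -0.03 and 0.0001 over all tested genes. Serglycin (Srgn), the core protein that binds proteases in the granule, read 11.52 to 11.57 on the 4 arrays, and cathepsin C (Ctsc), which activates chymases, read 9.91 to 10.37. In intestinal cells against control, 6 of 24 were lower and 1, cathepsin S (Ctss), was higher by 1.04, where 6.79% of all tested genes were lower and 4.52% higher. The list median was -0.24, against -0.0042 over all tested genes. Lower there were the tryptases Tpsb2 (40.6-fold) and Tpsab1 (7.93-fold) and, by 6.64-fold, Ndst2, the enzyme that starts the sulfation of heparin. The amine transporter Slc18a2 was 3.41-fold lower. Tpsb2 and Ndst2 were thus low on the same array as Cma1, whereas Cpa3, the carboxypeptidase that is stored together with the Cma1 protease, differed by -0.30.

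Among 27 genes of transcription factors and receptors tied to protease expression, none of the 26 tested was called with TGF-beta1 or Dll1 against control. Over all tested genes 0.513% were called higher and 0.901% lower with TGF-beta1, and 1.65% and 1.81% with Dll1, so a count of 0 on a list of this size is near that background. The median over all 27 measured was -0.15 with TGF-beta1 and -0.12 with Dll1, against -0.03 and 0.0001 over all tested genes. The Notch target Hes1 read 7.01 with Dll1, 5.85 with TGF-beta1 and 6.03 in control, which put it 2.22-fold higher with Dll1 than with TGF-beta1 and just under 2-fold above control (0.97). Hey1, the other Notch target on the list, was below background in every culture, with a reading of 4.76 with Dll1 and 4.99 in control. The TGF-beta feedback inhibitor Smad7 was 0.59 above control with either treatment. In intestinal cells against control, 4 were higher and 3 lower of 26 tested, where 4.52% of all tested genes were higher and 6.79% lower, with a median of -0.13. The higher ones were Hey1, a Notch target (at least 23.7-fold), Smad7 (3.60-fold), Notch1 (2.88-fold) and Hes1 (2.80-fold), and the lower ones were the interleukin-10 receptor chain Il10ra (4.88-fold), the transcription factor Gata1 (3.07-fold) and Tgfbr1 (2.75-fold). Gata2, a regulator of mast cell identity, read 10.41 in intestinal cells, 9.86 with Dll1, 10.48 with TGF-beta1 and 10.54 in control.

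Markers of other cells moved with the same arrays. On the Dll1 array 5 of 7 eosinophil markers and 9 of 9 neutrophil markers were above background, against 3 and 2 on the control array. Their summed linear signal was 4273 and 1865 with Dll1, against 259 and 318 in control. Of all 22180 genes, 12116 were above background with Dll1, 12027 in intestinal cells, 11208 with TGF-beta1 and 11480 in control. Counts above background on these short lists are to be read beside that. Of the eosinophil markers, 4 were higher with Dll1 than in control, led by Prg2 (66.0-fold), while the receptors Siglecf and Il5ra were below background with Dll1. Of the neutrophil markers, 6 were higher, led by S100a8 (at least 13.1-fold), Camp and Ltf were within 2-fold, and Ly6g was 2.07-fold lower. Over all tested genes, 1.65% were called higher and 1.81% lower with Dll1 than in control. On the intestinal array all 7 measured T and innate lymphoid markers were above background, against 3 in control. There, 6 of 8 epithelial and all 7 macrophage and dendritic cell markers were above background too, against 2 and 4 in control. The 3 sums in that order were 5997, 1575 and 2951 in intestinal cells, against 3548, 260 and 309 in control. In intestinal cells 1 gene made up most of each sum, Gzmb with 58.3%, Cdh1 with 70.5% and Itgax with 79.2%, and in control Gzmb made up 94.0% of the lymphoid sum. Cd3g was at least 13.0-fold and Itgax at least 66.0-fold higher in intestinal cells than in control. Of the 7 lymphoid markers tested there, 4 were higher. Lymphoid markers differed on the Dll1 array too, where 4 of 7 were above background and 3 of the 4 tested were higher than in control. These were Gzma (at least 6.86-fold), Nkg7 (4.32-fold) and Il7r (2.06-fold), and the T cell markers Cd3e, Cd3g and Cd8a were below background with Dll1. Without Gzmb the lymphoid sum was 2502 in intestinal cells, 621 with Dll1, 174 with TGF-beta1 and 213 in control, so it was higher on the 2 arrays where Mcpt4 was high. Of 6 epithelial markers tested in intestinal cells against control, 4 were higher. These were Cdh1 (15.5-fold), Fabp1 (at least 3.01-fold), Tff3 (at least 2.74-fold) and Krt8 (2.01-fold), whereas Epcam and Vil1 were below background in intestinal cells. Cdh1 was above background in every culture too, and was 2.66-fold higher with TGF-beta1 than in control. Of the 7 macrophage and dendritic cell markers, 4 were higher in intestinal cells than in control. These were Itgax, C1qb (at least 4.18-fold), C1qa (3.62-fold) and Csf1r (at least 2.65-fold), while Adgre1, Cd68 and Lyz2 were within 2-fold. Over all tested genes, 4.52% were called higher and 6.79% lower in intestinal cells than in control. Of 5 basophil markers, 4 were above background in intestinal cells, 4 with Dll1, 4 with TGF-beta1 and 5 in control, with sums of 2290, 2667, 963 and 1297. Mcpt8, which is also a cluster gene, made up most of that sum in intestinal cells and with Dll1, and Prss34 was below background on both of those arrays. Cd200r3 went the other way in intestinal cells, where it read just above the limit and was 13.8-fold lower than in control. The part of these cells in the readings of Mcpt4, Mcpt9, Mcpt-ps1 or Cma1, or of the cluster genes Mcpt8 and Ctsg, was not tested.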

How the data were processed

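RNA of 4 groups of mouse mast cells was measured with 1 Affymetrix whole-transcript array each. Per the labels' protocols, 2 ng of RNA was amplified with a kit for very small inputs. The deposited table holds log2 values of 33793 probe sets, as the authors made them; summarisation software, normalization and build were not given in the sources used here. Once sorted, the arrays' values lay 0.055 apart on average and at most 0.25, and they were used as deposited. The members and gene lists were chosen with earlier results of these data known.

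Platform annotation gave 1 symbol for 23521 probe sets, several for 1814, and did not list 8458. Of the probe sets of 1 gene, that with the highest mean was used. Medians of the members and lists cover all measured genes, tested or not, whereas the medians set beside them cover tested genes. The background limit came from 1446 probe sets with symbols starting with Olfr, Vmn1r, Vmn2r or Tas, of which 3 (Tasor, Tasor2 and Tasp1) are not receptors. Where 1 array was below its limit, the fold is a lower bound and carries the words "at least". With 1 array per group no p-value was computed, and precision is limited by the number of arrays. Named genes were the 7 members, the 6 genes nearest to each of Mcpt1, Mcpt2, Mcpt4 and Cma1, and up to 4 per list and comparison. Of the other-cell markers at least 2-fold different, some are named and others are covered by the counts and sums alone. Further list members named for their role were chosen after their values were seen. Gzme, Ndst1, Serpina3g, Il1rl1, Mcpt11 and Trbc2 had no probe set with 1 symbol. Promoters came from RefSeq (GRCm38.p6), aligned with Biopython 1.88 (match 2, mismatch -1, gap -5 and -0.5, free ends). Python 3.11.15, pandas 2.3.3, numpy 2.4.6 and matplotlib 3.10.9 were used. Alternatives were array medians subtracted, quantile normalization, other limits, an offset of 16 subtracted, averaged probe sets, 4-fold calls and correlation for likeness.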

Additional observations from a re-analysis of the deposited data

How the results depend on the processing

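Of 304 member differences recomputed under 8 alternatives, 274 moved by less than the probe set SD, 30 moved further and none changed the sign of a call. Part of the 274 could not move. Averaging probe sets left its 38 differences as they were, because each member has 1 probe set. Another limit cannot change a difference between readings that are above it on both arrays. The 30 were bounds or low control readings of Mcpt1, Mcpt2, Mcpt4 and Mcpt9, under another limit or the offset of 16. With the 99th percentile as limit, Mcpt9 lost its call for intestinal cells minus Dll1, and Mcpt1 was 6.37 above control with TGF-beta1; with the offset, Mcpt1 was 8.13 above control. Counts of members called stayed within 1.5 times of those reported, except at 4-fold, where 2 were called for intestinal minus TGF-beta and 1 for intestinal minus Dll1. Over all genes, 4-fold calls against control numbered 346 for intestinal cells, 67 for Dll1 and 21 for TGF-beta, and there were 79 for Dll1 minus TGF-beta, 269 for intestinal minus TGF-beta and 198 for intestinal minus Dll1. These compare with 1422, 434, 168, 516, 1080 and 1003 at 2-fold, and the stricter fold itself lowers them. With the offset of 16, 743 genes were called for Dll1 and 291 for TGF-beta against control, and 826 for Dll1 minus TGF-beta; subtracting it widens the differences of dim genes. A limit from receptor genes alone, chosen after the data were seen, moved no member difference beyond the SD. No paired analysis was possible because each group has 1 array, and leaving out a replicate was likewise not possible. Values near background, such as those of Mcpt9, are the least certain.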
